A study of Mus musculus with 19 samples.

Results

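The superficial segments of mouse primary somatosensory cortex (S1) were compared with the deep segments, gene by gene, in 5 RNA-seq libraries. The superficial group held libraries A (mostly layers 1 to 3) and B1 and B2 (mostly layer 4), and the deep group held libraries E (mostly layer 6) and F (mostly layer 6b). Libraries C and D, both mostly layer 5, were left out of both groups and are described only where they bear on a gene. All libraries came from male C57BL/6 mice (C57BL/6J in the study's methods) aged 56 days, and the labels name no modified allele and no treatment. Segments were cut by hand with a scalpel, so that each holds mostly, not only, its layer. A, E and F each held RNA pooled from 8 mice, whereas each B library was made from 1 litter of 4 mice, and all segments came from the same 8 mice. The 5 libraries were 5 of 19 in the series; 12 further samples, from dorsal and lateral cortex, were not used here. A gene was described as different when the ranges of its levels in the 3 superficial and the 2 deep libraries did not overlap.

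The neocortex is built of layers whose neurons differ in form, inputs and targets. Neurons of the upper layers mainly send axons to other cortical areas, layer 4 neurons receive the sensory input relayed by the thalamus, and many layer 6 neurons project back to the thalamus. Layer 6b, the deepest sheet, contains neurons that persist from the subplate of the developing cortex and borders the white matter, where myelinating oligodendrocytes are abundant. Expression was given as FPKM, fragments scaled by gene length and by library size, so that levels can be compared between genes. Of 24130 Ensembl genes with an entry in at least 1 S1 library, 23771 had an entry in at least 1 of the 5 libraries. A set of 11409 genes was classifiable, which means that none of the 95% confidence intervals given with its FPKM was wider than 50% of the 7-library S1 mean. Differences are given as superficial minus deep on the scale of log2(FPKM + 0.1), so that a negative value means a higher level in the deep segments and changes of low genes are understated.

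The ranges did not overlap for 5743 classifiable genes, or 50.3%. Of these, 1002 (8.78%) were higher in the superficial segments and 4741 (41.6%) were higher in the deep segments. Most separations were small. The gap, the lowest level in the higher group over the highest level in the lower group after adding 0.1 FPKM to each, had a median of 1.18 among the 1002 genes and 1.23 among the 4741. A gap over 2-fold was found for 90 and 290 genes and a gap over 4-fold for 22 and 64 genes. The B1 and B2 libraries, the only replicates of a segment (n = 2), differed by a median of 1.22-fold per classifiable gene. The gap was larger than the gene's own difference between B1 and B2 for 500 of the 1002 genes (49.9%) and for 2813 of the 4741 (59.3%). When the ranges were drawn from the ends of the 95% confidence intervals, 627 (5.50%) and 3073 (26.9%) genes stayed apart. At the limit of no overlap, Rrp1 and Map1a were just inside on the superficial side and Lysmd1 and Capn2 just inside on the deep side, each with a gap of 1.00-fold. Just outside were Mrpl27 and ENSMUSG00000079869 on the superficial side and Mif4gd and Ephb6 on the deep side. The first 3 of these had no entry in at least 1 library of each group, and Ephb6 had 25.1, 52.2 and 32.3 FPKM in A, B1 and B2 and 70.7 and 52.2 FPKM in E and F, the levels of B1 and F being equal to 3 digits.

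The excess of deep-higher genes depended on the scale of the libraries. On the deposited scale the median difference over all classifiable genes was -0.34, and after division by median-of-ratios factors, which were lowest in A (0.785) and highest in F (1.18), it was 0.00. The split into superficial-higher and deep-higher genes was 17.4% superficial on the deposited scale and 48.6% after median-of-ratios scaling (2324 genes, 20.4%, against 2455, 21.5%, or 41.9% of genes in either direction). It was 49.5% superficial after centring within bins of GC content (2260 against 2302 genes) and 36.7% when the genes of the mitochondrial genome were left out of the FPKM total (1694 against 2921 genes). The median-of-ratios factors and the GC centring were computed from these same genes and libraries. A median near 0.00 and a near-even split after either of them were therefore built in. The median-of-ratios factors were 0.785, 0.980 and 0.973 in A, B1 and B2 and 1.15 and 1.18 in E and F. Dividing by them raised every superficial and lowered every deep library, so none of the 1002 superficial-higher genes could lose its separation. Of the 4741 deep-higher genes, 2455 stayed deep-higher and 52 turned to the superficial side. Genes of the mitochondrial genome took 21.8% of the FPKM in A, 7.76% in B1 and 18.2% in B2, against 7.68% in E and 5.03% in F. Depth, estimated from the deposited coverage, was lowest in A at 31.4 M fragments and highest in B2 at 75.3 M, and the deep libraries had 44.0 M (E) and 55.7 M (F). All differences and gaps are given on the deposited scale unless stated otherwise, and a list of genes is to be read against the median of -0.34.

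**Figure D1:**
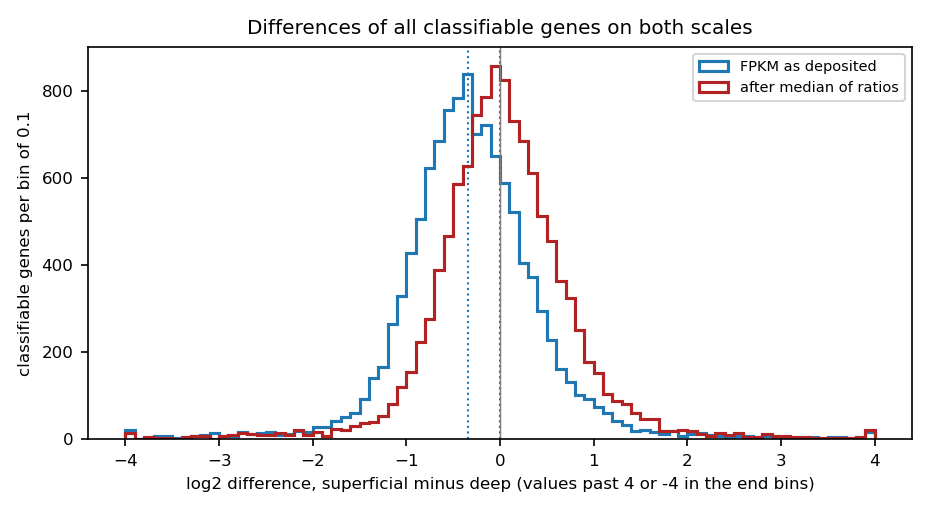
Histogram of the log2 difference, superficial minus deep, of the 11409 classifiable genes in bins of 0.1, on the deposited scale (blue) and after median-of-ratios scaling (red). The dotted blue line at -0.34 marks the median on the deposited scale, and the red distribution is centred on 0.00.

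A limma moderated test across the 11409 genes called 25 genes (0.219%) higher in the superficial and 44 (0.386%) higher in the deep segments at an adjusted p of 0.05. The ranges of all 69 did not overlap. After median-of-ratios scaling it called 28 genes (0.245%) in each direction, among them 23 of the 25 and 28 of the 44. Of the called genes named below, the scaling ended the calls of Ccn2, Nrp1, Cdh24, Syt10, Atp2b4, Igsf21, Sstr4, Cbln1, Bmp3, Prkg2, ENSMUSG00000039594 and ENSMUSG00000073082, at limma adjusted p-values of 0.0525 to 0.0973. At an unadjusted p of 0.05 the counts on the deposited scale were 406 and 1767. The called differences were large, between 1.82 and 8.46 in the superficial and between 1.96 and 6.34 log2 units in the deep direction. The libraries of a group came from different layers and shared mice with those of the other group, so these p-values measure only the spread among the 5 libraries. The counts rested on few libraries. Without B2 no gene was called in either direction, without E the counts were 0 and 2, without F 2 and 2, and without B1 19 and 12. For a single value, 3 libraries against 2 can be split in 10 ways, so an exact permutation test could not go below p = 0.1, and none was used.

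Among the genes with the largest gaps and a mean of at least 1 FPKM, 15 were taken per direction. In the superficial direction, 8 of the 15 had an entry in every library of the deep group, and their gaps ran from 4.56 to 13.6-fold. Cux2 (chr5:122308396-122499860, mm9), a homeobox transcription factor of upper layer neurons, had 37.9, 43.5 and 28.6 FPKM in A, B1 and B2 and 2.44 and 2.82 FPKM in E and F (log2 difference 3.73, SE 0.29, limma adjusted p = 0.00979). Its gap was 9.81-fold, and C and D lay in between at 9.17 and 3.21 FPKM. Neurod1, a basic helix-loop-helix transcription factor of neuronal differentiation, had 9.17, 6.51 and 6.81 FPKM in A, B1 and B2 and 0.662 and 0.446 FPKM in E and F (log2 difference 3.54, SE 0.30, limma adjusted p = 0.0135). Calb1, the calcium-binding protein calbindin, had 39.5, 29.7 and 33.9 FPKM in A, B1 and B2 and 6.42 and 3.54 FPKM in E and F (log2 difference 2.81, SE 0.34, limma adjusted p = 0.0356). Ddit4l, a stress-responsive inhibitor of mTOR signalling, had 16.7, 19.5 and 22.8 FPKM in A, B1 and B2 and 1.08 and 1.86 FPKM in E and F (log2 difference 3.68, SE 0.32, limma adjusted p = 0.0148). All 4 genes were high in A as well as in both layer 4 libraries. Tcap, known as a sarcomeric protein of muscle, had 8.27, 9.58 and 7.21 FPKM in A, B1 and B2 and 1.01 and 0.538 FPKM in E and F (limma adjusted p = 0.0199). The transmembrane protein genes Tmem215 and Tspan11 had their lowest superficial level in A, with 3.53, 7.66 and 6.68 FPKM in A, B1 and B2 and 0.555 and 0.158 FPKM in E and F for Tmem215 (limma adjusted p = 0.049). Tspan11 had 2.34, 6.76 and 4.84 FPKM in A, B1 and B2 and 0.0872 and 0.247 FPKM in E and F (limma adjusted p = 0.0383), and its model overlaps that of Gm15870. Gm12371, a long intergenic noncoding RNA at chr4:36899999-36935065 (mm9), had the largest gap of the 8, with 3.7, 5.25 and 6.71 FPKM in A, B1 and B2 and 0.178 and 0.15 FPKM in E and F (log2 difference 4.29, SE 0.33, limma adjusted p = 0.00979). As the libraries were made from tissue, fewer cells of a type and less RNA per cell cannot be told apart for any of these genes.

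In the deep direction, 12 of the 15 leading genes had an entry in every superficial library, with gaps from 9.59 to 28.6-fold. Krt80 (chr15:101180002-101200556), a keratin, had the largest of these gaps, with 0.126, 0.114 and 0.203 FPKM in A, B1 and B2 and 8.57 and 9.58 FPKM in E and F (log2 difference -5.23, SE 0.28, limma adjusted p = 0.00301). Rprm (chr2:53936504-53937963), the cell cycle inhibitor reprimo, had 2.98, 4.67 and 5.2 FPKM in A, B1 and B2 and 134 and 125 FPKM in E and F (log2 difference -4.93, SE 0.32, limma adjusted p = 0.00568). Both deep libraries of Rprm were more than 20 times above the highest superficial library. Nxph3, a secreted ligand of neurexins, had 1.46, 3.44 and 2.4 FPKM in A, B1 and B2 and 51.9 and 123 FPKM in E and F (log2 difference -5.06, SE 0.50, limma adjusted p = 0.0199). Its relative Nxph4 had 0.401, 0.0547 and 0.0555 FPKM in A, B1 and B2 and 6.2 and 41.3 FPKM in E and F, and its log2 difference of -6.14 with SE 0.902 did not pass the test at a limma adjusted p = 0.0625. Both neurexophilins were higher in F than in E. Ccn2, a secreted matricellular protein, was also higher in F, with 1.24, 0.634 and 0.794 FPKM in A, B1 and B2 and 31.4 and 167 FPKM in E and F (log2 difference -6.24, SE 0.71, limma adjusted p = 0.0325). By contrast, E and F were within 1.5-fold of each other for Rprm, Krt80, Ighm, Sla, Thsd7b, Rxfp1, Sema5a, Glra2 and ENSMUSG00000039594. Ighm, the constant region of the immunoglobulin mu chain, had 2.14, 2.35 and 4.6 FPKM in A, B1 and B2 and 76.6 and 66.8 FPKM in E and F (log2 difference -4.60, SE 0.39, limma adjusted p = 0.0135). Sla, a Src-like adaptor whose model overlaps that of Tg, had 0.326, 0.34 and 0.364 FPKM in A, B1 and B2 and 6.02 and 8.65 FPKM in E and F (log2 difference -4.05, SE 0.27, limma adjusted p = 0.00568). Rxfp1, the relaxin receptor, had 0.106, 0.0987 and 0.168 FPKM in A, B1 and B2 and 3.25 and 3.3 FPKM in E and F (log2 difference -3.92, SE 0.27, limma adjusted p = 0.00568). Glra2, a glycine receptor subunit, had 0.32, 0.448 and 0.757 FPKM in A, B1 and B2 and 8.12 and 11.2 FPKM in E and F (log2 difference -4.05, SE 0.38, limma adjusted p = 0.0164). Thsd7b, a thrombospondin-domain protein whose model overlaps that of ENSMUSG00000066956, had 0.114, 0.153 and 0.141 FPKM in A, B1 and B2 and 3.15 and 4.19 FPKM in E and F (limma adjusted p = 0.00568). ENSMUSG00000039594 had 0.106, 0.525 and 0.498 FPKM in A, B1 and B2 and 6.2 and 7.46 FPKM in E and F (limma adjusted p = 0.0427).

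**Figure D2:**
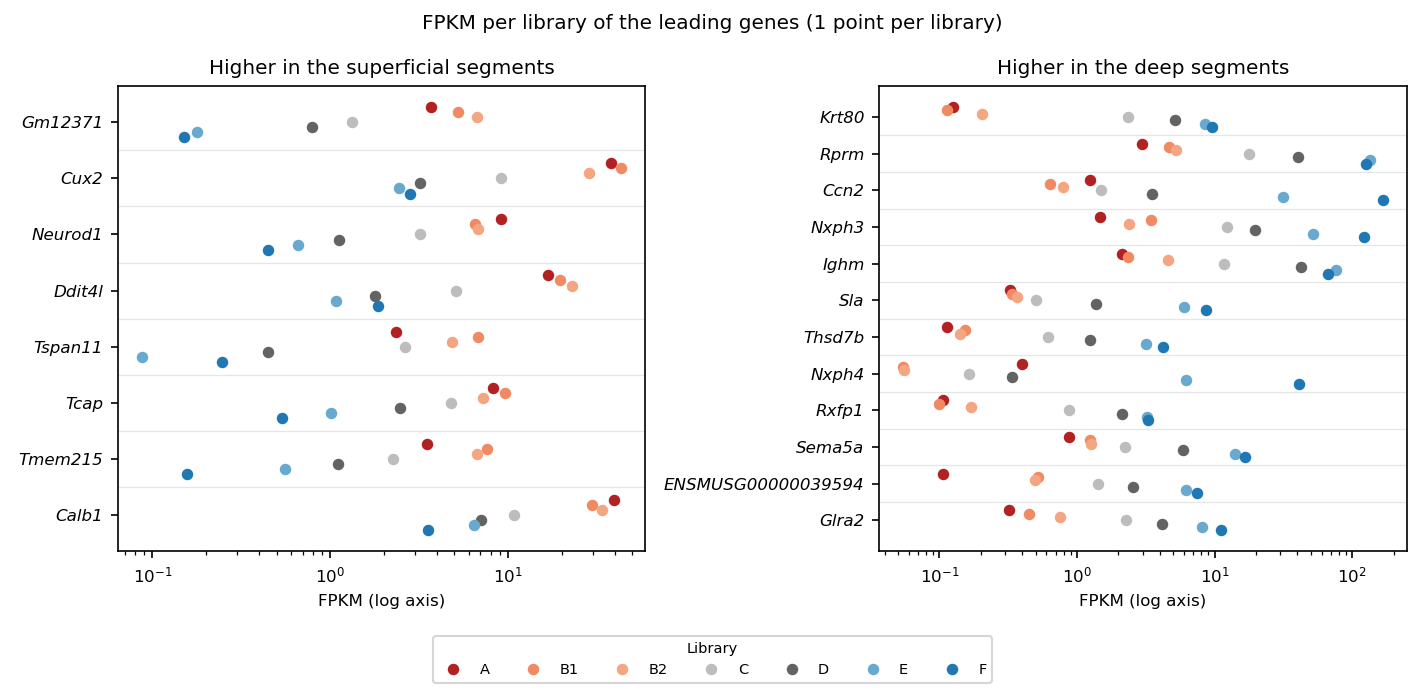
FPKM of the leading genes with an entry in every library of the lower group, 1 point per library on a log axis, for 8 superficial-higher genes (left) and 12 deep-higher genes (right). Red and orange points are A, B1 and B2, blue points E and F, and grey points C and D; the red and blue points of each gene do not mix.

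The remaining leading genes had no entry in any library of the lower group, where they were set to 0, so no fold is given for them. In the superficial direction these were Gm10493, ENSMUSG00000052747, Tagln, Nkiras2, ENSMUSG00000080000, ENSMUSG00000053090 and ENSMUSG00000073082, and in the deep direction Gss, Gpr21 and Ap4m1. Gm10493, a processed pseudogene whose model overlaps another gene, had 17.7, 71.8 and 33.7 FPKM in A, B1 and B2, 29.8 FPKM in C and 11.5 in D and no entry in E or F. Tagln, the smooth muscle protein transgelin, had 14.7, 4.09 and 3.22 FPKM in A, B1 and B2 and no entry in the other 4 libraries, and its model overlaps that of Pcsk7. Gss, the enzyme glutathione synthetase, had no entry in A, B1 or B2, 5.86 FPKM in C and 5.64 in D and 5.68 and 11.2 FPKM in E and F, and its model overlaps that of Acss2. Gpr21, an orphan G protein-coupled receptor gene within Rabgap1 and beside Strbp, had no entry in A, B1, B2 or C, 4.61 FPKM in D and 7.06 and 6.44 FPKM in E and F. Ap4m1, a subunit of an adaptor complex for vesicle sorting, had no entry in A, B1, B2 or D, 3.48 FPKM in C and 4.28 and 4.51 FPKM in E and F, and overlaps Mcm7 and Taf6. Of the 15 leading genes, 8 in the superficial and 6 in the deep direction overlapped another listed gene. The kit did not keep strand, so fragments of overlapping genes cannot be told apart, and the estimate may have been assigned to either gene. A 0 in at least 1 of the 5 libraries was found for 9 of the 25 and 4 of the 44 genes called by limma.

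The counts of the lists that follow are to be read against the 8.78% of all classifiable genes that were superficial-higher and the 41.6% that were deep-higher. The list members were chosen with earlier results of these data known. Layer markers are also named for their layer, so their side was foreseen, and their counts are a description and not a test. Some of them, such as Cux2, Rprm and Sla, were already named above for their gaps. Of 17 upper layer markers listed, 14 were classifiable, 10 of these (71.4%) were superficial-higher with no overlap, none was deep-higher, and limma called 4 (Cux2, Calb1, Lamp5 and Rasgrf2). Their median difference was 1.57, and 1.91 after median-of-ratios scaling. Lamp5, a lysosome-associated membrane protein, was the most abundant of them, with 258, 219 and 239.6 FPKM in A, B1 and B2 and 50.7 and 29.8 FPKM in E and F (log2 difference 2.61, SE 0.31, limma adjusted p = 0.0356). Rasgrf2, a guanine nucleotide exchange factor for Ras, had 39.9, 49.7 and 49.3 FPKM in A, B1 and B2 and 10.8 and 7.11 FPKM in E and F (log2 difference 2.38, SE 0.30, limma adjusted p = 0.0379). Cux1, the paralogue of Cux2, had 33.4, 38.1 and 33.8 FPKM in A, B1 and B2 and 9.73 and 11.8 FPKM in E and F (log2 difference 1.70, SE 0.25, limma adjusted p = 0.066). The deep level of Cux1 was a larger share of its superficial level than that of Cux2. Stard8 and Nectin3 had gaps of 3.08 and 2.57-fold, with limma adjusted p = 0.0578 and 0.0793, and Lhx2, Wfs1 and Inhba had gaps of 1.39, 1.32 and 1.48-fold. Inhba, which encodes an activin subunit, and Wfs1, the wolframin gene, were highest in A, at 19 and 23.4 FPKM against 8.05 and 11.2 in B1. Ranges overlapped for Plcxd2, Unc5d, Mdga1 and Pou3f3, and for the first 2 of these A alone was below a deep library. Plcxd2 had 3.96 FPKM in A against 36.6 and 36.2 in B1 and B2. Outside the classifiable set, Otof, the otoferlin gene, had 7.09, 0.868 and 0.975 FPKM in A, B1 and B2 and 0.178 and 0.177 FPKM in E and F, and Adamts2, a procollagen protease, was deep-higher with 1.22, 0.608 and 0.459 FPKM in A, B1 and B2 and 1.68 and 2.74 FPKM in E and F.

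Layer 4 markers differed within the superficial group as well as between the groups. Of 10 listed, 7 were classifiable, 3 (Rorb, Rora and Rspo1) were superficial-higher with no overlap and 4 overlapped. Their median difference was 1.45, and limma called none, with 3 at an unadjusted p of 0.05. Rspo1, a secreted enhancer of Wnt signalling, had 4.48, 30.1 and 18.6 FPKM in A, B1 and B2 and 0.533 and 0.936 FPKM in E and F (log2 difference 4.08, SE 0.79, limma adjusted p = 0.112). Rorb, a nuclear receptor that marks layer 4 neurons, had 5.98, 17.8 and 22.1 FPKM in A, B1 and B2 and 2.23 and 2.27 FPKM in E and F (log2 difference 2.51, SE 0.57, limma adjusted p = 0.139). Both B libraries were more than 2.5 times above A for these 2 genes, and A was still above E and F. For Scnn1a, an epithelial sodium channel subunit, the ranges overlapped through A, with 0.18 FPKM there, 2.87 and 2.02 in B1 and B2 and 0.117 and 0.297 in E and F. Cnih3, an auxiliary subunit of AMPA receptors, was lowest of all in A, at 3.64 FPKM against 44 in B1 and 50.1 in C. The summed FPKM of the 10 markers was 33.2 in A, 169 and 141 in B1 and B2, 144 in C, 70.7 in D and 41.4 and 45.1 in E and F.

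All classifiable markers of corticothalamic layer 6 neurons, 10 of 13 listed, were deep-higher with no overlap, and limma called 5 of them (Rprm, Sla, Zfpm2, Tle4 and Ntsr1). The median difference was -3.23, and -2.88 after median-of-ratios scaling, under which 9 stayed apart and Sox5 overlapped. Ntsr1, a neurotensin receptor that marks corticothalamic neurons, had 0.4, 0.664 and 0.463 FPKM in A, B1 and B2 and 5.51 and 5.2 FPKM in E and F (log2 difference -3.18, SE 0.29, limma adjusted p = 0.0148). Tle4, a transcriptional corepressor, had 2.56, 3.96 and 5.64 FPKM in A, B1 and B2 and 35 and 39.8 FPKM in E and F (log2 difference -3.24, SE 0.38, limma adjusted p = 0.033), and Zfpm2, a cofactor of GATA factors, had 0.481, 1.33 and 1.21 FPKM in A, B1 and B2 and 11.9 and 14.6 FPKM in E and F (log2 difference -3.69, SE 0.45, limma adjusted p = 0.0368). Hs3st4, a heparan sulphate sulphotransferase, had 2.2, 12 and 12.9 FPKM in A, B1 and B2 and 72.5 and 93.2 FPKM in E and F, and its larger spread within the superficial group left it at limma adjusted p = 0.131. The T-box factor Tbr1 had a smaller gap of 1.59-fold, with 41.8 FPKM in B1 and 66.6 in F, and its level in A was 10.5 FPKM. Crym, the thyroid hormone-binding protein mu-crystallin, had 1.56, 4.57 and 5.09 FPKM in A, B1 and B2 and 32.5 and 31 FPKM in E and F, and D reached the level of the deep libraries with 21.9 FPKM in C and 34.3 in D. The transcription factor Foxp2, a marker of layer 6, was not classifiable, its widest interval being that in F, and had 0.392, 0.287 and 0.29 FPKM in A, B1 and B2 and 13.2 and 13.9 FPKM in E and F. Syt6, likewise not classifiable, had 0.761, 0.69 and 0.641 FPKM in A, B1 and B2 and 22.5 and 18.6 FPKM in E and F.

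The layer 6b markers were highest in F. All 6 classifiable markers of 11 listed were deep-higher with no overlap, with a median difference of -3.55 (-3.20 after median-of-ratios scaling), and limma called Ccn2 and Drd1. In all 6 the level was higher in F than in E, by 2.0 to 6.67-fold. Cplx3, a complexin that regulates vesicle fusion, had 9.24, 3.22 and 3.22 FPKM in A, B1 and B2 and 30.5 and 164 FPKM in E and F (log2 difference -3.92, SE 0.81, limma adjusted p = 0.118). Drd1, a dopamine receptor gene, had 0.711, 0.874 and 0.905 FPKM in A, B1 and B2 and 5.87 and 11.8 FPKM in E and F (log2 difference -3.18, SE 0.36, limma adjusted p = 0.0325). Drd1 is also a member of the striatal neuron list described below, and the part of striatal tissue in its level was not tested. Moxd1, a monooxygenase, had 0.515, 0.847 and 0.783 FPKM in A, B1 and B2 and 2.74 and 9.49 FPKM in E and F. Tmem163, a zinc transporter, had 1.25, 2.25 and 2.03 FPKM in A, B1 and B2 and 7.17 and 26.6 FPKM in E and F, and in layer 5 it had 9.18 FPKM in C and 7.73 in D. The orphan nuclear receptor Nr4a2, not classifiable, had 2.01, 1.27 and 1.51 FPKM in A, B1 and B2 and 8.73 and 27.1 FPKM in E and F. The summed FPKM of the 11 markers was 502 in F and 113 in E, against 14.6 to 20.5 in the superficial libraries.

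Libraries C and D took no part in the comparison of ranges, but their levels and intervals entered the 7-library filter for classifiable genes. They fell differently for both kinds of gene on the deposited scale. On that scale the median FPKM of the classifiable genes also lay between the groups in C (8.98) and D (9.09). It was 6.23, 7.73 and 7.86 in A, B1 and B2 and 9.48 and 9.81 in E and F. The positions were not computed on another scale, and the part of scale in them was not tested. Of the 4741 deep-higher genes, C lay between the groups in 2417 (51.0%) and D in 2331 (49.2%), and both did in 1782 (37.6%). Of the 1002 superficial-higher genes, C lay between the groups in 338 (33.7%) and D in 363 (36.2%), and both did in 213 (21.3%). In 369 superficial-higher genes (36.8%) C lay within the superficial range. A complete staircase, from the superficial range through C and then D to the deep range, was seen for 173 (17.3%) and 1358 (28.6%) genes. C was above D in 72.0% of the superficial-higher, 29.5% of the deep-higher and 52.2% of the overlapping genes, against 44.5% of all classifiable genes. Some genes were highest in layer 5. Both C and D were above both groups in 336 deep-higher genes (7.09%) and 18 superficial-higher genes (1.80%). The examples were chosen after their values were seen. Fezf2, a zinc finger factor that specifies subcerebral projection neurons, had 0.98, 6.06 and 3.86 FPKM in A, B1 and B2 and 13.3 and 13.8 FPKM in E and F, with 26 FPKM in C and 22.5 in D. Tox, an HMG-box factor, had 12.8 FPKM in C and 11.4 in D. It had 0.916, 3.61 and 3.76 FPKM in A, B1 and B2 and 5.49 and 4.06 FPKM in E and F, so its groups were narrowly apart. On the superficial side, Adcyap1, the precursor of the neuropeptide PACAP, had 13.2 FPKM in C and 10.4 in D against 8.02 FPKM in B1 and 2.54 and 0.662 FPKM in E and F. Rhbdl3, a rhomboid-like protein, had 3.28 FPKM in C and 3.26 in D. Its groups were barely apart, with 1.34, 1.35 and 1.11 FPKM in A, B1 and B2 and 1.06 and 1.10 FPKM in E and F. Cplx3 was below both groups in layer 5, with 2.29 FPKM in C and 2.9 in D.

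**Figure D3:**
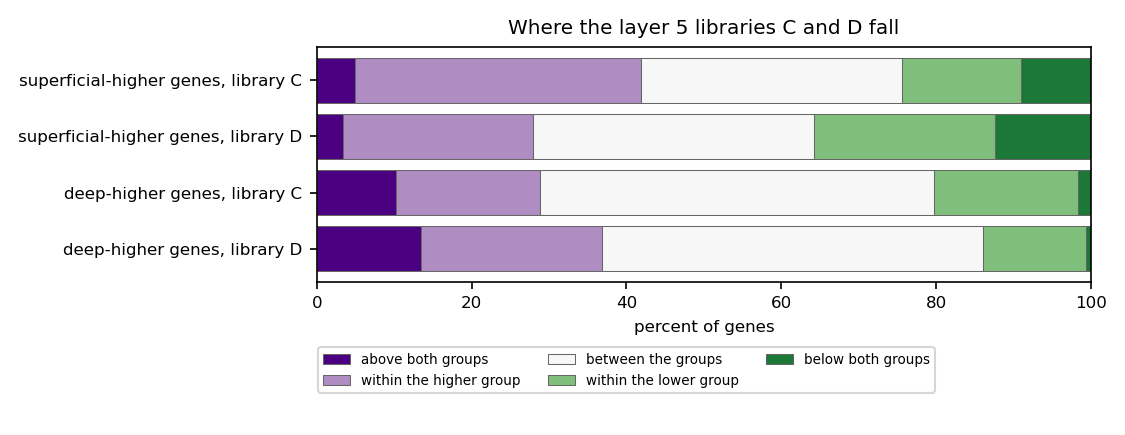
Percent of the 1002 superficial-higher and 4741 deep-higher genes in which library C or D lay above both groups, within the range of the higher group, between the groups, within the range of the lower group or below both groups. The white middle segments, genes between the groups, take 33.7% and 36.2% of the superficial-higher and 51.0% and 49.2% of the deep-higher genes for C and D.

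Glial markers made up some of the most abundant deep-higher genes. All 13 oligodendrocyte markers were classifiable and deep-higher with no overlap, with a median difference of -3.27 (-2.91 after median-of-ratios scaling). Limma called none of the 13, and all 13 had an unadjusted p under 0.05. E and F differed by 2.44 to 3.64-fold for these markers, with F higher each time. Mbp, myelin basic protein, had 172, 459.7 and 469 FPKM in A, B1 and B2 and 2291 and 6954 FPKM in E and F (log2 difference -3.58, SE 0.64, limma adjusted p = 0.0938). Mobp, another myelin protein gene, had 26.3, 62.1 and 85.4 FPKM in A, B1 and B2 and 466 and 1379 FPKM in E and F (log2 difference -3.95, SE 0.66, limma adjusted p = 0.0854). For each of the 13 markers A was lower than both B1 and B2, and their summed FPKM ran from 346 in A to 4281 in E and 13042 in F. The 6 classifiable oligodendrocyte precursor markers of 9 listed were also deep-higher, with a median of -1.97 (-1.62 after median-of-ratios scaling). Limma called none of them and all 6 had an unadjusted p under 0.05. Pdgfra, a growth factor receptor of these precursors, had 1.0, 2.11 and 1.98 FPKM in A, B1 and B2 and 5.51 and 8.05 FPKM in E and F, and Sox10, a transcription factor of the lineage, had 2.75, 8.49 and 3.84 FPKM in A, B1 and B2 and 16.1 and 52.2 FPKM in E and F. The part of oligodendrocytes in the other deep-higher genes was not tested.

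Astrocyte markers took no common side on the deposited scale. Of 12 classifiable markers 3, Aldoc and Aldh1l1 among them, were superficial-higher, 2 (Aqp4 and Gja1) were deep-higher and 7 overlapped, with a median of -0.01 that became 0.35 after median-of-ratios scaling. After that scaling 6 of the 12 were superficial-higher and 1 deep-higher, against 20.4% and 21.5% of all classifiable genes. The counts were also 6 and 1 after centring on GC content. Limma called none, with 1 at an unadjusted p of 0.05. Aqp4, the water channel of astrocyte endfeet, had 4.95, 9.54 and 8.33 FPKM in A, B1 and B2 and 17 and 27.7 FPKM in E and F. Aldoc, a glycolytic aldolase, had 421, 387 and 344 FPKM in A, B1 and B2 and 266 and 296 FPKM in E and F. Gfap, the intermediate filament of reactive and white matter astrocytes, was high at both ends of the cortex, with 34.4 FPKM in A, 5.81 and 4.68 in B1 and B2, 20.2 in E and 126 in F. Of 10 classifiable microglia markers 6 (60.0%, against 41.6% of all classifiable genes) were deep-higher and none superficial-higher, with a median of -0.75 (-0.40 after scaling); limma called none, and 6 had an unadjusted p under 0.05. P2ry12, a purinergic receptor of microglia, had 1.05, 3.01 and 2.92 FPKM in A, B1 and B2 and 7.25 and 6.97 FPKM in E and F. Tmem119 lost its separation after median-of-ratios scaling.

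**Figure D4:**
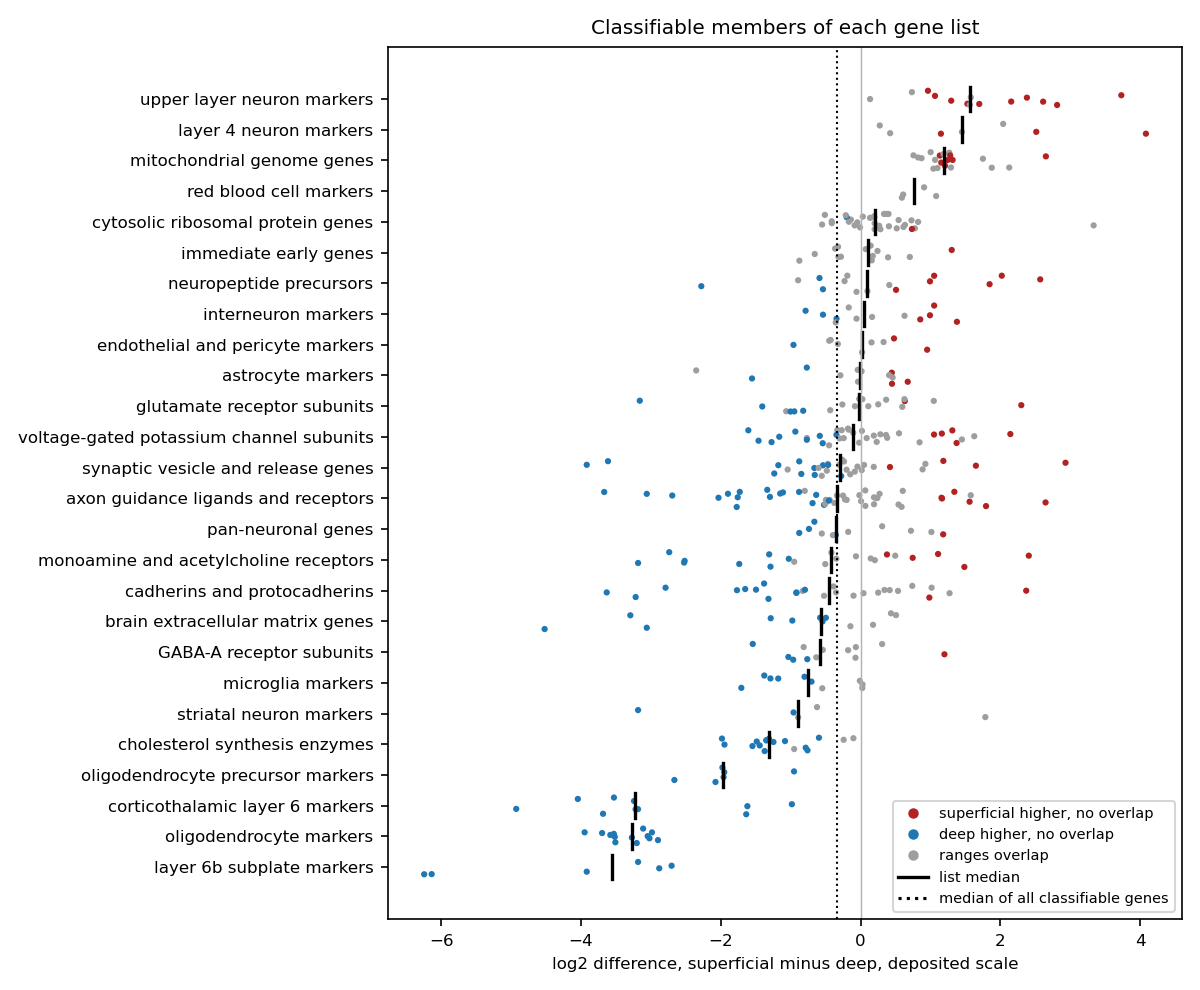
Log2 difference, superficial minus deep, of every classifiable member of 26 gene lists on the deposited scale, 1 point per gene, sorted by list median (black bar). Red points are superficial-higher and blue points deep-higher genes with no overlap, grey points overlap, and the dotted line marks the median of all classifiable genes at -0.34; the upper layer list lies furthest to the right and the layer 6b list furthest to the left.

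The sums of leptomeningeal, red blood cell and ribosomal protein genes were highest in A, whereas the endothelial and pericyte sum differed little between libraries. None of 11 leptomeningeal fibroblast markers was classifiable, and their summed FPKM was 76.6 in A against 12.4 to 34.3 in the other 6 libraries. Of the 11, 6 were superficial-higher with no overlap and 0 deep-higher, against 1164 and 2452 of the 12721 genes that were not classifiable. Slc6a13, a GABA transporter of the meninges, had 7.27 FPKM in A and at most 0.761 elsewhere, and Dcn, decorin, had 4.04 in A and at most 1.11 elsewhere. The haemoglobin and other red blood cell markers summed to 939 FPKM in A and to 101 to 149 in the other 6, and all 4 that were classifiable overlapped. The 32 classifiable of 77 cytosolic ribosomal protein genes overlapped in 30 cases, and their sum over all 77 was 4568 in A against 934 to 1605 elsewhere. Of 9 classifiable endothelial and pericyte markers 2 (Cldn5 and Flt1) were superficial-higher, 1 (Itm2a) was deep-higher and 6 overlapped, with sums between 107 and 125 in all 7 libraries. Cldn5, the tight junction protein of brain endothelium, had 51, 29.5 and 22.8 FPKM in A, B1 and B2 and 15.8 and 17.7 FPKM in E and F. Of 5 striatal neuron markers that were classifiable 2 (Drd1 and Ppp1r1b) were deep-higher and 3 overlapped, and the defining markers Drd2, Adora2a and Gpr6 had 3.64, 5.44 and 1.53 FPKM in F against 0.48, 0.894 and 0.198 in E. The part of meningeal, blood or striatal tissue in the differences was not tested.

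Interneuron markers and genes listed as pan-neuronal held members on both sides. Of all classifiable genes 8.78% were superficial-higher and 41.6% deep-higher. Of 12 classifiable interneuron markers 4 (33.3%) were superficial-higher, 3 (25%) deep-higher and 5 overlapping. Their median was 0.05 (0.41 after median-of-ratios scaling). Limma called none, with 2 at an unadjusted p of 0.05. Vip, a peptide gene of interneurons that are common in upper layers, had 15.2, 10.9 and 15.6 FPKM in A, B1 and B2 and 8.82 and 5.32 FPKM in E and F. Calb2, the calretinin gene, had 5.23, 4.01 and 3.36 FPKM in A, B1 and B2 and 1.76 and 2.85 FPKM in E and F. Pvalb, parvalbumin of fast-spiking interneurons, had 61.1, 70.2 and 118 FPKM in A, B1 and B2 and 56.4 and 16.5 FPKM in E and F, with its highest level in C at 145 FPKM. Sst, the peptide somatostatin, was on the other side, with 177, 192 and 154 FPKM in A, B1 and B2 and 269.9 and 235 FPKM in E and F, but its gap of 1.22-fold did not outlast median-of-ratios scaling, and the same held for the other 2 deep-higher members, Gad2 and Adarb2. Among 11 genes listed as pan-neuronal Rbfox3, the NeuN antigen, was the only superficial-higher member, with 337, 263 and 217 FPKM in A, B1 and B2 and 130.2 and 107 FPKM in E and F. Syt1, Map2, Eno2 and Slc17a7 were deep-higher, the last being a vesicular glutamate transporter of glutamatergic neurons and not strictly pan-neuronal. The shares of 9.09% superficial-higher and 36.4% deep-higher among the 11 were near those of all classifiable genes. The median of the 11 was -0.35 and turned to 0.01 after median-of-ratios scaling, near the -0.34 and 0.00 of all classifiable genes.

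Of 15 classifiable neuropeptide precursors 6 (40.0%) were superficial-higher and 3 deep-higher, against 8.78% and 41.6% of all classifiable genes, and of all 21 listed, 7 were on each side without overlap. After median-of-ratios scaling 7 of the 15 were superficial-higher and 0 deep-higher, against 20.4% and 21.5% of all classifiable genes. The counts were 6 and 2 after centring on GC content. The median was 0.10 (0.45 after median-of-ratios scaling), and limma called none, with 4 superficial and 1 deep at an unadjusted p of 0.05. Cck, cholecystokinin, was the most abundant of the 6, with 506, 436 and 398 FPKM in A, B1 and B2 and 356 and 274 FPKM in E and F. Pdyn, prodynorphin, had 2.65, 7.93 and 6.59 FPKM in A, B1 and B2 and 1.03 and 1.82 FPKM in E and F and was highest in C at 15.4 FPKM. Adcyap1 had 3.12, 8.02 and 7.17 FPKM in A, B1 and B2 and 2.54 and 0.662 FPKM in E and F, and Crh, corticotropin-releasing hormone, had 19.7, 3.91 and 3.62 FPKM in A, B1 and B2 and 2.84 and 3.41 FPKM in E and F, most of it in A. Nmb, neuromedin B, had 2.27, 1.11 and 1.47 FPKM in A, B1 and B2, no entry in C, D or E, and 0.671 FPKM in F. Grp, gastrin-releasing peptide, was the deep-higher member with the largest difference, with 3.82, 0.722 and 0.89 FPKM in A, B1 and B2 and 9.78 and 5.07 FPKM in E and F and a log2 difference of -2.28, and its ranges overlapped after median-of-ratios scaling.

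Receptor families held members on both sides, as did all classifiable genes (8.78% superficial-higher and 41.6% deep-higher). Of 19 classifiable glutamate receptor subunits 2 (10.5%) were superficial-higher, 5 (26.3%) deep-higher and 12 overlapping. After median-of-ratios scaling 7 were superficial-higher and 5 deep-higher, against 20.4% and 21.5% of all classifiable genes. The median of -0.02 turned to 0.34, where that of all classifiable genes went from -0.34 to 0.00. Grik3, a kainate receptor subunit, had 1.45, 6.22 and 3.85 FPKM in A, B1 and B2 and 28 and 32.3 FPKM in E and F (log2 difference -3.16, SE 0.59, limma adjusted p = 0.0993), a gap of 4.45-fold. Its relative Grik2 was deep-higher too, at 10.3 and 9.16 FPKM in E and F, whereas Grik4 overlapped through A at 13.5 FPKM. The metabotropic receptor Grm2 was on the superficial side, with 7.24, 46.9 and 23.9 FPKM in A, B1 and B2 and 4.86 and 3.31 FPKM in E and F, and C at 24.2 FPKM lay within the superficial range. Grin2b, an NMDA receptor subunit, had 153 FPKM in A and 21.6 to 33.6 in the other 6 libraries, and its ranges overlapped. Its model overlaps that of Gm14329. Of 12 GABA-A receptor subunits 1 (8.33%) was superficial-higher, 4 (33.3%) deep-higher and 7 overlapping, near the shares of all classifiable genes. Their median was -0.59, which was -0.23 after median-of-ratios scaling and turned to 0.06 after centring on GC content. Gabrd, the delta subunit of extrasynaptic receptors, had 73.6, 49.7 and 49 FPKM in A, B1 and B2 and 28.6 and 21 FPKM in E and F (log2 difference 1.20, SE 0.31, limma adjusted p = 0.18), and Gabra5, an alpha subunit, had 5.56, 12.2 and 14.1 FPKM in A, B1 and B2 and 24.3 and 34.4 FPKM in E and F (log2 difference -1.54, SE 0.46, limma adjusted p = 0.208). Limma called none of either family, with 1 superficial and 4 deep glutamate receptor subunits and 1 and 2 GABA-A receptor subunits at an unadjusted p of 0.05.

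Among 21 classifiable receptors for monoamines and acetylcholine, of 39 listed, 5 (23.8%) were superficial-higher and 8 (38.1%) deep-higher, against 8.78% and 41.6% of all classifiable genes, with a median of -0.42 (-0.08 after scaling); limma called Drd1 only. Chrna4, a nicotinic receptor subunit, had 2.23, 4.82 and 4.42 FPKM in A, B1 and B2 and 19 and 24.1 FPKM in E and F (log2 difference -2.53, SE 0.40, limma adjusted p = 0.0747). Adra2a, an inhibitory adrenergic receptor, had 1.77, 1.64 and 1.24 FPKM in A, B1 and B2 and 6.43 and 18.1 FPKM in E and F (log2 difference -2.74, SE 0.47, limma adjusted p = 0.0892), with F nearly 3 times E. Htr1f, a serotonin receptor, had 0.13, 0.717 and 0.636 FPKM in A, B1 and B2 and 3.11 and 2.63 FPKM in E and F and already 1.84 FPKM in C and 2.61 in D. On the superficial side, Htr7, another serotonin receptor, had 3.35, 4.69 and 4.46 FPKM in A, B1 and B2 and 1.07 and 1.85 FPKM in E and F (log2 difference 1.49, SE 0.33, limma adjusted p = 0.135), and Adra1d, an adrenergic receptor gene that overlaps Gm14285 and was highest in B1, had 9.23, 46.5 and 18.5 FPKM in A, B1 and B2 and 5.93 and 2.28 FPKM in E and F. Chrm1, the muscarinic receptor with a superficial-higher gap of only 1.0-fold, had 42.3 FPKM in B2 and 42.2 in E.

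Of 35 classifiable voltage-gated potassium channel subunits 5 (14.3%) were superficial-higher, 9 (25.7%) deep-higher and 21 overlapping. Among all classifiable genes these shares were 8.78%, 41.6% and 49.7%. After median-of-ratios scaling 7 were superficial-higher and 5 deep-higher, against 20.4% and 21.5% of all classifiable genes. The median of -0.11 turned to 0.25, where that of all classifiable genes went from -0.34 to 0.00. Limma called none, with 5 superficial and 3 deep at an unadjusted p of 0.05. Kcnh4 had the largest superficial difference, with 7.95, 6.51 and 4.28 FPKM in A, B1 and B2 and 1.9 and 0.871 FPKM in E and F (log2 difference 2.14, SE 0.43, limma adjusted p = 0.115). Kcnh3 was superficial-higher with a gap of 1.37-fold. On the deep side Kcna6 had the largest gap, with 13.2, 15.6 and 19.6 FPKM in A, B1 and B2 and 40.3 and 47.9 FPKM in E and F (log2 difference -1.46, SE 0.29, limma adjusted p = 0.113). Kcnab1, an auxiliary beta subunit, had 2.91, 17.5 and 16.5 FPKM in A, B1 and B2 and 22 and 38.2 FPKM in E and F, a wide spread within the superficial group through A.

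Axon guidance genes, 45 of 66 classifiable, were superficial-higher in 6 cases (13.3%), deep-higher in 17 (37.8%) and overlapping in 22, near the shares of all classifiable genes. Their median of -0.34 equalled that of all genes to 2 digits and turned to 0.02 after median-of-ratios scaling, after which 13 were superficial-higher and 12 deep-higher. Limma called Sema5a and Nrp1, both deep-higher. Sema5a, a transmembrane semaphorin, had 0.872, 1.23 and 1.26 FPKM in A, B1 and B2 and 14.1 and 16.6 FPKM in E and F (log2 difference -3.67, SE 0.28, limma adjusted p = 0.00979). Nrp1, a semaphorin co-receptor, was level within the groups, with 2.44, 2.36 and 2.5 FPKM in A, B1 and B2 and 10.6 and 9.95 FPKM in E and F (log2 difference -2.03, SE 0.24, limma adjusted p = 0.033). Sema3e, a secreted semaphorin, had 0.512, 1.84 and 1.68 FPKM in A, B1 and B2 and 11.1 and 10.1 FPKM in E and F, with 7.8 FPKM in C and 10.3 in D, while its receptor Plxnd1 was on the superficial side, with 12, 24.1 and 16.2 FPKM in A, B1 and B2 and 1.85 and 3.6 FPKM in E and F (log2 difference 2.65, SE 0.43, limma adjusted p = 0.0793). Efnb3, an ephrin, had 5.23, 10.7 and 5.97 FPKM in A, B1 and B2 and 25.2 and 82.3 FPKM in E and F, with F over 3 times E. Epha8 and Epha10, ephrin receptors, were superficial-higher with gaps of 2.44 and 2.12-fold, and Ephb1, another, was deep-higher with a gap of 2.19-fold and 8.31, 9.01 and 9.14 FPKM in A, B1 and B2 and 20.1 and 23.6 FPKM in E and F.

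Cadherins and protocadherins were deep-higher in 11 of 26 classifiable cases (42.3%) and superficial-higher in 2 (7.69%), close to the 41.6% and 8.78% of all classifiable genes, with a median of -0.46 (-0.11 after scaling). Limma called Cdh9 and, on the deposited scale but not after median-of-ratios scaling (limma adjusted p = 0.069) or without the mitochondrial genome (0.0506), Cdh24, cell adhesion molecules of the cadherin family. Cdh9 had 0.551, 0.66 and 0.937 FPKM in A, B1 and B2 and 13.4 and 7.22 FPKM in E and F (log2 difference -3.63, SE 0.37, limma adjusted p = 0.0214), and Cdh24 had 0.56, 0.693 and 0.346 FPKM in A, B1 and B2 and 3.96 and 8.0 FPKM in E and F (log2 difference -3.22, SE 0.41, limma adjusted p = 0.0408). Cdh18 had 1.24, 3.61 and 3.29 FPKM in A, B1 and B2 and 17.1 and 18.2 FPKM in E and F (log2 difference -2.79, SE 0.49, limma adjusted p = 0.0928). The superficial-higher member with the larger difference, Cdh22, had 27.5, 27.3 and 16.1 FPKM in A, B1 and B2 and 5.3 and 3.58 FPKM in E and F (log2 difference 2.37, SE 0.36, limma adjusted p = 0.0685). Of 12 classifiable extracellular matrix genes 8 (66.7%) were deep-higher, 4 overlapped and none was superficial-higher, with a median of -0.56 (-0.26 after scaling); limma called none, with 5 at an unadjusted p of 0.05. Thbs4, a thrombospondin, had 22.5 FPKM in F, 1.26 in E and at most 0.393 in the superficial libraries. Hapln2, a link protein of nodes in white matter, had 0.589, 1.27 and 1.15 FPKM in A, B1 and B2 and 5.57 and 18.8 FPKM in E and F, and Adamts4, a protease of proteoglycans, had 1.07, 3.53 and 2.36 FPKM in A, B1 and B2 and 10.9 and 30.1 FPKM in E and F.

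Enzymes of cholesterol synthesis were mostly deep-higher. Of 17 classifiable genes 14 were deep-higher, 3 (Fdps, Mvd and Pmvk) overlapped and none was superficial-higher, with a median of -1.31. After median-of-ratios scaling the median was -0.96 and 12 stayed deep-higher. Limma called none of the 17, and 12 had an unadjusted p under 0.05. Sqle, squalene epoxidase, had 4.28, 12.9 and 12.3 FPKM in A, B1 and B2 and 28.9 and 40.7 FPKM in E and F (log2 difference -1.95, SE 0.53, limma adjusted p = 0.188). The sterol desaturase Sc5d had 4.39, 8.95 and 11.3 FPKM in A, B1 and B2 and 19.6 and 25.8 FPKM in E and F, Hsd17b7 had 1.19, 5.04 and 3.98 FPKM in A, B1 and B2 and 7.35 and 9.38 FPKM in E and F, Msmo1 had 13.2, 19 and 33.4 FPKM in A, B1 and B2 and 47.7 and 64.2 FPKM in E and F and Nsdhl had 3.17, 4.65 and 6.85 FPKM in A, B1 and B2 and 11.1 and 13.5 FPKM in E and F. For 11 of the 17, A was lower than both B libraries. For the 5 enzymes named here C and D were nearer to E than to A, as with 21.5 FPKM in C and 22.3 in D for Sqle. F exceeded E in 16 of the 17, by at most 1.73-fold, less than the 2.44-fold of the oligodendrocyte marker with the smallest step. The summed FPKM of the 18 enzymes found was 133 in A, 314 in E and 425 in F. The median FPKM of all classifiable genes had the same order, at 6.23 in A, 9.48 in E and 9.81 in F. The part of oligodendrocytes in the enzyme sum was not tested.

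As 14 of these enzymes lay on the same side, stretches of their promoters are shown. RefSeq (GRCm38.p6) gave a promoter for 13 of the 18 enzymes found in the files, and 3 motifs were searched on both strands in the 250 bases before the gene start, each counted regardless of overlap with another motif. The CCAAT box (CCAAT, or ATTGG on the other strand) was present in 13 of 13, against 37.5% of all 27025 genes and 39.7% of the classifiable genes with a promoter. It was in 10 of 10 deep-higher enzymes and also in 2 of 2 overlapping enzymes with a promoter, so it did not separate them. The GC box (GGGCGG) was present in 12 of 13, against 35.4% and 64.8%. A sterol regulatory element with the letters TCACNCCAC was present in 0 of 13 and in 1.22% of all genes, which says only that these letters are not in this window. Among the 11 oligodendrocyte markers with a promoter, 5 held a CCAAT box. The stretches around a CCAAT box are given for the 4 enzymes with the largest deep differences among those with an entry. They are written 5′ to 3′ on the strand of the gene, with the box or its reverse complement in capitals. Those of Sc5d, Hsd17b7 and Nsdhl end at the base before the gene start, and that of Msmo1 ends further upstream.
Sc5d, chr9:42264301-42264354 (GRCm38.p6, minus strand), box 24 bases before the start: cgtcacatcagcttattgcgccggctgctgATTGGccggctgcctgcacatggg
Hsd17b7, chr1:169969206-169969247 (GRCm38.p6, minus strand), box 12 bases before the start: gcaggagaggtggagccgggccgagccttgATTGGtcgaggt
Msmo1, chr8:64733599-64733663 (GRCm38.p6, minus strand), box 55 bases before the start: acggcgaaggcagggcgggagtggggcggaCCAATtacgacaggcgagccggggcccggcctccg
Nsdhl, chrX:72918471-72918520 (GRCm38.p6, plus strand), box 20 bases before the start: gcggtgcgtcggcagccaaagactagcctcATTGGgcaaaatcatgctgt
The stretch of Msmo1 also holds GGGCGG just before the box, and the other 3 stretches show the box as ATTGG. A match is a description of the letters and not of a bound site.

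Synaptic vesicle and release genes, 32 of 35 classifiable, were superficial-higher in 4 cases (12.5%) and deep-higher in 11 (34.4%), near the shares of all classifiable genes, and their median of -0.29 turned to 0.07 after median-of-ratios scaling. Limma called Syt10, a synaptotagmin, with 0.607, 0.208 and 0.239 FPKM in A, B1 and B2 and 4.93 and 5.16 FPKM in E and F (log2 difference -3.61, SE 0.42, limma adjusted p = 0.033). The vesicular glutamate transporters lay on opposite sides. Slc17a6 was superficial-higher with 1.99, 7.73 and 7.86 FPKM in A, B1 and B2 and 0.845 and 0.366 FPKM in E and F (log2 difference 2.93, SE 0.68, limma adjusted p = 0.144), and the far more abundant Slc17a7 was deep-higher with 435, 629 and 439 FPKM in A, B1 and B2 and 762 and 799 FPKM in E and F (log2 difference -0.66, SE 0.28, limma adjusted p = 0.272). Rims3, an active zone protein, was superficial-higher with 28.1, 106 and 61.5 FPKM in A, B1 and B2 and 23.7 and 13.7 FPKM in E and F, and Syt17 with 10.3, 7.67 and 8.55 FPKM in A, B1 and B2 and 4.7 and 3.09 FPKM in E and F. Immediate early genes, which are induced by activity, overlapped in 13 of 14 classifiable cases. The exception was Egr4, with 10.7, 13 and 5.76 FPKM in A, B1 and B2 and 4.08 and 3.35 FPKM in E and F (log2 difference 1.30, SE 0.40, limma adjusted p = 0.213), and the list median was 0.11. Of 20 classifiable genes of the mitochondrial genome 7 were superficial-higher and none deep-higher, with a median of 1.20; limma called none, with 5 at an unadjusted p of 0.05. B1 was the lowest superficial library for each of the 7, as for mt-Nd1, with 8637, 4134 and 8272 FPKM in A, B1 and B2 and 3505 and 2554 FPKM in E and F.

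Several genes outside the lists were also called by limma, and the examples were chosen after their values were seen. On the superficial side, Camk2n1, an inhibitor of calcium/calmodulin kinase II, was among the most abundant genes of the cortex, with 1265, 1095 and 1259 FPKM in A, B1 and B2 and 319 and 231 FPKM in E and F (log2 difference 2.15, SE 0.27, limma adjusted p = 0.0386). Car4, a membrane-bound carbonic anhydrase, had 23.1, 22.6 and 26.5 FPKM in A, B1 and B2 and 5.86 and 6.14 FPKM in E and F (log2 difference 1.98, SE 0.25, limma adjusted p = 0.0371), Prkg2, a cGMP-dependent kinase, had 3.31, 2.31 and 2.41 FPKM in A, B1 and B2 and 0.534 and 0.399 FPKM in E and F (log2 difference 2.29, SE 0.29, limma adjusted p = 0.0386), and Myh7b, a myosin heavy chain, had 9.85, 8.61 and 7.8 FPKM in A, B1 and B2 and 1.35 and 1.99 FPKM in E and F (log2 difference 2.34, SE 0.29, limma adjusted p = 0.0369). On the deep side, Atp2b4, a plasma membrane calcium pump, had 18.5, 13.5 and 13.3 FPKM in A, B1 and B2 and 103 and 148 FPKM in E and F (log2 difference -3.04, SE 0.31, limma adjusted p = 0.0203). Igsf21, an immunoglobulin superfamily protein, had 14.8, 10.3 and 8.17 FPKM in A, B1 and B2 and 63.4 and 83.6 FPKM in E and F (log2 difference -2.75, SE 0.34, limma adjusted p = 0.0371). Islr2, a leucine-rich repeat protein of axons, had 4.69, 8.16 and 6.43 FPKM in A, B1 and B2 and 37.7 and 45.2 FPKM in E and F (log2 difference -2.70, SE 0.32, limma adjusted p = 0.0343), and Spon1, the secreted protein spondin, had 2.03, 3.5 and 3.32 FPKM in A, B1 and B2 and 18.8 and 21.7 FPKM in E and F (log2 difference -2.77, SE 0.33, limma adjusted p = 0.033). Rspo2, a secreted enhancer of Wnt signalling, was deep-higher with 0.505, 0.87 and 1.18 FPKM in A, B1 and B2 and 7.9 and 8.8 FPKM in E and F (log2 difference -3.21, SE 0.37, limma adjusted p = 0.033), opposite to Rspo1. Sstr4, a somatostatin receptor, had 4.19, 5.03 and 4.52 FPKM in A, B1 and B2 and 17.7 and 18.5 FPKM in E and F (log2 difference -1.96, SE 0.25, limma adjusted p = 0.0379), with 13.9 FPKM in C and 15.5 in D. Cbln1, a secreted synapse organiser, had 0.404, 0.417 and 0.295 FPKM in A, B1 and B2 and 3.56 and 2.12 FPKM in E and F (log2 difference -2.61, SE 0.32, limma adjusted p = 0.0371). Bmp3, a bone morphogenetic protein, had 1.79, 1.77 and 0.877 FPKM in A, B1 and B2 and 10.9 and 10.6 FPKM in E and F (log2 difference -2.84, SE 0.37, limma adjusted p = 0.0412).

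The most abundant genes without overlap, leaving out the mitochondrial genome, were Nrgn, Camk2n1, Camk2a, Olfm1 and Selenow on the superficial side and, among the 5 on the deep side, Mbp, Cpe, Syp and Gnas. Nrgn, the postsynaptic calmodulin-binding protein neurogranin, had 4621, 2958 and 2329.6 FPKM in A, B1 and B2 and 1558 and 1028 FPKM in E and F (log2 difference 1.32, SE 0.39, limma adjusted p = 0.201). Camk2a, a calcium/calmodulin kinase II subunit, had 991, 1091 and 857 FPKM in A, B1 and B2 and 602 and 420.2 FPKM in E and F (log2 difference 0.95, SE 0.29, limma adjusted p = 0.209), and its inhibitor Camk2n1 had a wider gap, of 3.43 against 1.42-fold. Cpe, a peptide-processing carboxypeptidase, had 373, 667 and 660.0 FPKM in A, B1 and B2 and 817 and 1067 FPKM in E and F, and Syp, the vesicle protein synaptophysin, had 526, 709.8 and 615 FPKM in A, B1 and B2 and 867 and 861 FPKM in E and F, less than the 953 FPKM in C, and its model overlaps that of Gm14703. Of these genes only Camk2n1 was called by limma, and the separation of Gnas was lost after median-of-ratios scaling.

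Isoforms of a gene could differ in opposite directions. Of 1661 genes with at least 2 classifiable transcripts, 77 (4.64%) had a transcript that was superficial-higher and another that was deep-higher without overlap. The count was 41 when ranges were drawn from the 95% intervals, and between 121 and 270 when a library was left out. The 6 genes with the largest separation in isoform share were Rcan2, Csmd2, Sirt7, Sppl3, Srrd and Tmem150a. Rcan2 encodes a regulator of calcineurin. Its transcript ENSMUST00000044792 made up 21.7%, 20.8% and 19.1% of the FPKM of the gene in A, B1 and B2 and 72.9% and 82.2% in E and F, with 51.7% in C and 68.7% in D. The transcript ENSMUST00000113586 made up 55.3%, 27.2% and 67.5% in A, B1 and B2 and 19.6% and 13% in E and F. Its share thus differed widely between B1 and B2, the replicates of a segment. The rest of the gene, largest in B1, was assigned to transcripts not shown, so the change is not a plain exchange of both isoforms. In FPKM, ENSMUST00000044792 had 6.68, 19.1 and 18.6 in A, B1 and B2 and 57.1 and 80.1 in E and F, and ENSMUST00000113586 had 17.0, 25 and 65.7 against 15.3 and 12.7. For Sppl3, an intramembrane protease, ENSMUST00000112134 had no entry in A or B1 and 17.6% in B2, against 49.2% and 48.9% in E and F. Csmd2, a large transmembrane protein, had 26.6, 7.75 and 5.54 FPKM of ENSMUST00000129619 in A, B1 and B2 and no entry for it in E or F, while ENSMUST00000128091 had 4.97, 6.12 and 5.12 against 7.08 and 6.49. Sirt7, a sirtuin, had ENSMUST00000133625 at 35.4%, 38.8% and 33.5% in A, B1 and B2 and no entry for it in the other 4 libraries. A missing transcript was set to 0, and a minor isoform below the reporting limit of the software would be missing too.

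**Figure D5:**
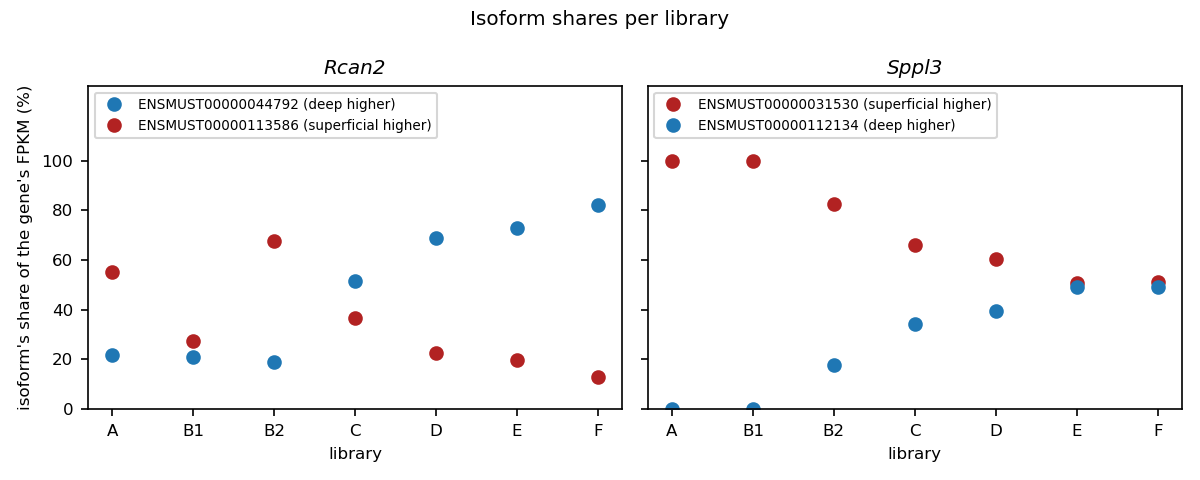
Share of the FPKM of Rcan2 (left) and Sppl3 (right), in percent, taken by a superficial-higher (red) and a deep-higher (blue) transcript in each of the 7 libraries, 1 point per library. The blue transcript of Rcan2 goes from 19.1% to 21.7% in A, B1 and B2 to 72.9% and 82.2% in E and F, and that of Sppl3 from at most 17.6% to 49.2% and 48.9%. The red and blue transcripts of Rcan2 do not make up the whole gene, least of all in B1.

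The genes of both directions differed in sequence features that had not been used to define them. The median GC content of transcripts was 55.2% for the superficial-higher, 47.4% for the deep-higher and 52.1% for the overlapping genes, and after median-of-ratios scaling it was 54.5%, 46.8% and 50.1%. Median transcript length was 2809 bases for the superficial-higher, 3797 for the deep-higher and 3031 for the overlapping genes. Protein-coding genes were 83.3%, 91.8% and 80.1% of the 3 classes. Genes annotated as antisense were 55 of the 1002 superficial-higher, 47 of the 4741 deep-higher and 276 of the 5666 overlapping genes. Values of GC content were found for 94.1% of the superficial-higher and 97.1% of the deep-higher genes. The part of GC content in the differences beyond the centring described above was not tested.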

How the data were processed

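Polyadenylated RNA of 7 hand-cut S1 segments was sequenced as paired fragments from a random-primed kit that does not keep strand. Per the submitters' processing notes and the study's methods, the authors aligned reads (50 bases of each end, 75 for some of F) to mm9 with TopHat 1.0.13 and estimated gene and transcript levels with Cufflinks 0.8.3 on Ensembl release 57. The deposited values are FPKM with 95% confidence intervals, and the deposited coverage (a signal) served only to estimate depth, which ran from 31.4 to 75.3 M fragments. Cufflinks splits shared fragments by a model, so overlapping genes and isoforms can be less certain than their intervals say. Each interval belongs to 1 library and does not hold the spread between mice or between libraries.

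Genes or transcripts with no line in a library were set to 0, and genes listed at 2 places, 8 to 15 per library, were summed. A gene was classifiable when none of its 95% intervals was wider than 50% of the 7-library S1 mean. Superficial libraries (A, B1, B2) were compared with deep ones (E, F) by non-overlap of ranges and by limma 3.58.1 in R 4.3.3 on log2(FPKM + 0.1), with Benjamini-Hochberg adjustment over 11409 genes at a threshold of 0.05. The limma step was run on simulated independent values drawn from limma's own variance model. Such a run checks only the computation, since the real libraries share mice and come from different layers within a group. Transcripts were joined to genes by identifier or position, and the join was checked by summing transcript FPKM to gene FPKM within 1%. GC content, gene class and promoters were joined by identifier, and mm9 positions were not converted.

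Named genes were, per direction, the 15 with the largest gap at a mean of at least 1 FPKM, the 5 most abundant, the 2 on each side of the limit, members of 27 lists (in pathway lists those with the largest differences) and the 6 genes with the largest separation in isoform share; genes chosen otherwise are said to be. The members and lists were chosen with earlier results of these data known. Alternatives comprised 15 planned and 2 added after the data were seen. List symbols not found (Pou3f2, Kcnb2 and Hmgcs1) and the dorsal and lateral samples were not analysed here, and a few genes are not reported here.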

Additional observations from a re-analysis of the deposited data

How the results depend on the processing

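On the deposited scale limma called 25 superficial-higher and 44 deep-higher genes. The superficial count was 7 with a pseudocount of 1, 15 with no filter on low values, 43 with a filter at a mean of 1 FPKM, 38 after centring on GC content and 10 with B1 and B2 averaged. The deep count was 23 with a pseudocount of 1, 85 with the filter at a mean of 1 FPKM, 28 after median-of-ratios scaling, 25 with the mitochondrial genome left out and 10 with B1 and B2 averaged. Restricting the genes to those listed in all 7 libraries, an alternative chosen after seeing the data, gave 42 and 116 calls, and 50 and 55 calls when joined with median-of-ratios scaling. Leaving out a library gave 0 to 20 superficial and 0 to 45 deep calls. The ranges of 1002 superficial-higher and 4741 deep-higher genes did not overlap. These counts were 2166 and 7193 with no filter, 2324 and 2455 after median-of-ratios scaling (2268 and 2431 when joined with genes listed in all 7 libraries), 1694 and 2921 without the mitochondrial genome, 2260 and 2302 after centring on GC content, and 627 and 3073 with ranges from the 95% intervals, and the superficial count was 1601 with B1 and B2 averaged. Leaving out a library gave 1456 to 1622 superficial-higher and 5290 to 5902 deep-higher genes, since ranges over fewer libraries overlap less. Isoform pairs in opposite directions numbered 41 with ranges from intervals and 121 to 270 without a library, against 77. Of 162 named classifiable genes, Adarb2 (0.18) and Syp (0.041) turned positive after centring on GC content and Eno2 (0.0051) after median-of-ratios scaling, with all libraries or with genes listed in all 7, and no other named gene without overlap changed sign under any alternative run. For a gene without overlap, only a change of scale or the centring on GC content could change the sign. Median-of-ratios scaling and leaving out the mitochondrial genome could do so only for deep-higher genes. Among named genes that overlapped, Cnih3 (-0.37 to -0.21) and Pou3f3 (-0.23 to -0.01) turned negative with B1 and B2 averaged or without B1 (Cnih3 also without B2), and Mvd (0.09 to 0.11) and Pmvk (0.08 to 0.26) turned positive after rescaling or without F. Of the named genes that limma called, 12 lost the call after median-of-ratios scaling, 12 with the mitochondrial genome left out and 4 after centring on GC content. Tle4, Zfpm2, Islr2, Spon1, Rspo2 and Tmem215 kept the call after median-of-ratios scaling. They lost it with the mitochondrial genome left out, at limma adjusted p-values of 0.0506 to 0.053. The cause of these changes was not tested. No paired analysis was possible because replicate numbers exist only for the B libraries, which belong to the same group.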

Other observations

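A few genes without overlap between superficial and deep segments were most extreme in layer 5, and these were chosen after their values were seen. Slc5a5, the sodium-iodide symporter, had 9.69 FPKM in C and 8.43 in D, against 0.696, 2.43 and 2.18 FPKM in A, B1 and B2 and 4.51 and 5.05 FPKM in E and F. Camk1g, a calcium/calmodulin-dependent kinase, had 18.6 FPKM in C and 14.5 in D, against 10.2, 10.2 and 11.6 FPKM in A, B1 and B2 and 7.38 and 3.94 FPKM in E and F. Ntn5, a netrin-like gene, had its lowest values in C and D, at 1.64 and 1.90 FPKM, against 8.14, 8.29 and 3.96 FPKM in A, B1 and B2 and 3.57 and 3.44 FPKM in E and F. At the level of the whole gene, Csmd2 was also lowest in layer 5, with 7.53 FPKM in C and 7.88 in D, against 37.1, 16.1 and 12.8 FPKM in A, B1 and B2 and 9.92 and 10.2 FPKM in E and F.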
